A study of Rattus norvegicus with 24 samples.

Results

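This comparison set 2 single exposures against each other in the colon of the adult rat: a high-fat diet after a control birth (CHFD), and intra-uterine growth retardation (IUGR, impaired growth before birth) followed by chow (RND). All arrays of these groups were used, 6 a side, which is 12 of the 24 arrays in the series. The 2 CHFD arrays that share the title number 10B were averaged, which gave 5 CHFD and 6 RND samples, 11 of the 20 samples in all. The remaining samples were controls on chow (CND, n = 6) and growth-restricted rats on the high-fat diet (RHFD, n = 3). All rats were Sprague Dawley rats of 8 months, and all RNA came from epithelial cells shaken loose from proximal and distal colon after chelation of calcium. The labels do not say how growth was restricted, what the high-fat diet held, how long it was fed, the sex of the rats, or whether each title number is 1 animal, so p-values measure the spread between these samples. The groups differ in both diet and birth status, so a difference between them can go with either exposure. In the linear model it equals the diet effect minus the IUGR effect, each averaged over the other factor.

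The colonic epithelium is renewed from crypts whose stem cells give rise to absorptive colonocytes and to goblet, enteroendocrine and tuft cells. Colonocytes take up water, salts and short-chain fatty acids. Goblet cells secrete mucus and defence proteins, enteroendocrine cells release peptide hormones, and tuft cells sense luminal signals and take part in type 2 immunity. Lymphocytes that live between the epithelial cells come off with them when the sheet is loosened.

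The isolates carried the markers of epithelium. All 8 tested epithelial markers were detected on every CHFD and RND array, and none differed between the groups at the adjusted threshold. Epcam, an epithelial adhesion molecule, had a mean level of 13.89 in CHFD and 13.51 in RND (log2 difference 0.39, adjusted p = 0.36), and Vil1, which encodes the brush border protein villin, of 12.24 and 12.52 (-0.28, adjusted p = 0.639). Leukocyte markers were detected as well and are described with the immune genes below. All levels are normalized intensities on a log2 scale and are read within a gene, since probes of different genes are not on a common scale.

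The median signal of the 12 CHFD and RND arrays was 93 to 112, and the mean signal 309 to 571, highest on RND 35B. On each array 8490 to 9872 of the 22523 probes were detected. Detected probes averaged 9087 ± 193 (SD) on the CHFD arrays and 9339 ± 499 on the RND arrays. Each of the 2 chips held 3 arrays of every group. The arrays of CHFD 10B differed from each other with an SD of 0.279 (log2), against 0.377 to 0.701 for 17 other pairs of CHFD or RND arrays on different chips. One sample stood apart. RND 17B differed from the mean of its group with an SD of 0.610, against 0.309 to 0.491 for every other sample of the series, and it lay alone at the low end of the first principal component. In RND 17B the positional gene Hoxa13, looked up after its values were seen, had a level of 4.37, against 7.35 to 8.68 in the other RND samples and 5.73 to 8.55 in CHFD. Hoxb8 was 9.99 in RND 17B, 6.82 to 8.70 in the other RND samples and 7.19 to 9.69 in CHFD.

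**Figure D1:**
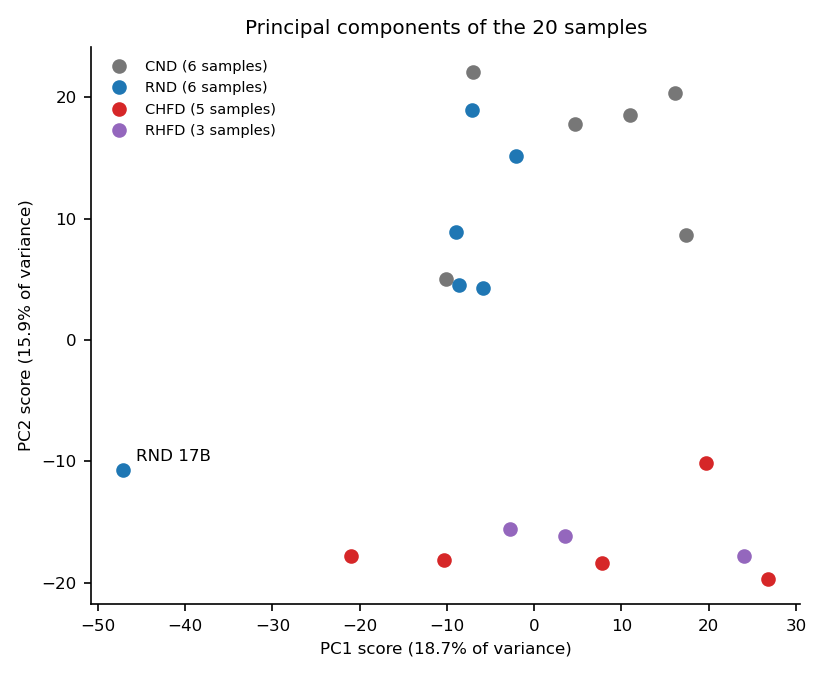
Scores of the 20 samples on the first and second principal components of the tested probes (18.7% and 15.9% of the variance), coloured by group. All CHFD and RHFD samples and RND 17B lie below 0 on the second component, the other RND samples and all CND samples lie above 0, and RND 17B lies farthest to the left.

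Of 10193 probes tested, 55 differed between CHFD and RND at a Benjamini-Hochberg adjusted p under 0.05 in limma, which is 0.54% of the probes. Of these, 25 were higher in CHFD (0.245%) and 30 higher in RND (0.294%). They represent 46 named genes, 23 in each direction (0.626% of the 7345 genes tested), and 8 probes without a gene name. The log2 differences of the 55 ranged in size from 0.51 to 6.75 with a median of 1.07, and the difference was at least 2-fold for 15 probes higher in CHFD and 16 higher in RND. For 45 of the 55 no CHFD sample overlapped an RND sample, against 186 of all probes (1.82%), made up of 0.814% with CHFD above RND and 1.01% below. Within each chip taken alone, all 55 had the direction of the whole fit. The 55 were picked from these same samples, so the overlap and chip counts are descriptions only. An unadjusted p under 0.05 was reached by 1372 probes (13.5%). Median-centring the arrays in place of quantile normalization moved the median of all probes by -0.14 and changed the split from 45.5% to 23.5% higher in CHFD, with 34 probes called. All p-values below are adjusted in this way, and differences are CHFD minus RND. Counts of called members of gene lists below are to be read beside the 0.626% of all genes. The lists were chosen with earlier results of these data known, so such counts are descriptions only.

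Among named genes the largest differences were in secreted defence proteins of the gut. Retnla and Retnlb encode resistin-like proteins and lie close together on chromosome 11. In mice, Retnlb is a goblet cell product that acts on bacteria. Itln1 encodes intelectin, a lectin that binds sugars found on microbes. Because Retnla and Retnlb lie close together and were both higher in CHFD, their promoters are shown (RefSeq, GRCr8), as 250 bases before and 30 bases after the start given in the promoter table. For Retnla that start lies within the gene's annotated span, downstream of its outer end. Capitals mark the nuclear receptor half-site AGGTCA on either strand.
Retnla, chr11:65426157-65426436, minus strand: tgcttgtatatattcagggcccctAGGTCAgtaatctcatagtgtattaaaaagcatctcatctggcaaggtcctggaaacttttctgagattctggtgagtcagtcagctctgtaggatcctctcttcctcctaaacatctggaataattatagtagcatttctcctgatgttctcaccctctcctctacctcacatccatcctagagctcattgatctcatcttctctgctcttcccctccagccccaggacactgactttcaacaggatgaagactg
Retnlb, chr11:65448290-65448569, minus strand: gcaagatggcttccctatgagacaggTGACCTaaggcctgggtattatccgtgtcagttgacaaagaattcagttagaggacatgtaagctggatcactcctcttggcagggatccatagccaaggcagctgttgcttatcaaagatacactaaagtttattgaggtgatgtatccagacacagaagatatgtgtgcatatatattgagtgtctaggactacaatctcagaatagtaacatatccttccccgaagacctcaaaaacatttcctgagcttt
Each window holds 1 AGGTCA match, which 15.3% of 33469 rat promoters of this length also hold. The STAT motif TTCNNNGAA had 1 match in the Retnlb window and 0 in that of Retnla (8.42% of promoters). A match describes letters only.

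Retnla (probe ILMN_1362534, chromosome 11, 65424685 to 65426484) had levels of 11.89, 13.18, 13.26, 13.86 and 12.79 in the 5 CHFD samples. The RND samples ran from 4.48 to 8.63 with a median of 5.53. The groups did not overlap, and the log2 difference was 6.75 (SE 0.66, adjusted p = 1.53e-05), a 107-fold difference (95% confidence interval 41.1 to 281). Retnla was detected on 6 of 6 CHFD and 4 of 6 RND arrays. Retnlb (ILMN_1365931, chromosome 11, 65446433 to 65448319) stood at 10.0003, 11.53, 11.53, 12.85 and 11.71 in CHFD and between 4.32 and 6.75 in RND (median 4.39). It was detected on 6 of 6 CHFD arrays and 2 of 6 RND arrays, and its difference was 6.37 (SE 0.56, adjusted p = 4.57e-06). RND 37B and 39B were the highest 2 samples of their group for both resistin-like genes. The size of both differences depended on background correction: without it the log2 differences were 5.35 for Retnla and 4.5 for Retnlb. These genes are paralogs, and cross-hybridization of their probes was not tested.

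Itln1 (ILMN_1349778, chromosome 13, 86464641 to 86490655) had levels of 13.30, 14.37, 14.02, 14.27 and 13.83 in CHFD. In RND it varied widely, from 7.79 to 12.27 with a median of 9.92, and no RND sample reached a CHFD sample. The difference was 4.03 (SE 0.61, adjusted p = 0.00317), a fold of 16.4 (6.76 to 39.6). These 3 genes were the members of the list of 13 tested genes for antimicrobial and microbial sensing proteins that passed, all higher in CHFD. Of all 7345 genes, 0.626% passed in either direction. The list's median difference was 0.83, beside -0.0017 over all genes. Reg3g, which encodes a secreted lectin that kills Gram-positive bacteria, did not pass: its mean was 14.07 ± 0.70 (SD, n = 5) in CHFD and 11.92 ± 1.76 (n = 6) in RND (adjusted p = 0.246). Slpi, an inhibitor of leukocyte proteases, had means of 9.06 ± 1.09 and 7.36 ± 1.5 (adjusted p = 0.188).

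Other goblet cell genes did not pass. Of 8 tested goblet markers, Retnlb and Itln1 passed, where 0.626% of all genes passed in either direction, and the median was 0.70. Clca1, a secreted protein of the mucus layer, had means of 12.73 ± 0.48 in CHFD and 11.22 ± 1.08 in RND (difference 1.51, adjusted p = 0.122), and Tff3, a trefoil peptide, of 13.09 ± 0.36 and 12.23 ± 0.80 (0.86, adjusted p = 0.174). Agr2, which helps fold mucin, went the other way in its mean (-0.41, adjusted p = 0.371). The summed goblet marker level was 15.65 to 16.22 in CHFD and 14.82 to 16.11 in RND, and the part of cell numbers in it was not tested. This sum includes the called Retnlb and Itln1, so it is not independent of those calls. In bulk RNA, more cells of a type and more RNA per cell cannot be told apart.

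Ubd encodes a ubiquitin-like protein induced by interferon and tumour necrosis factor. Its levels (ILMN_1353912, chromosome 20, 1390734 to 1392685) were 9.14, 10.76, 8.93, 9.01 and 11.95 in CHFD and 5.91 to 7.63 in RND (median 6.54). CHFD exceeded RND without overlap, by 3.31 (SE 0.56, adjusted p = 0.00638, fold 9.91, 4.4 to 22.4). It was the only one of 16 tested interferon response genes to pass, and the median of that list was -0.02. Ifi27, another interferon-induced gene, was lower on average in CHFD (6.67 ± 1.42 against 8.45 ± 1.00, adjusted p = 0.287).

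Class I histocompatibility genes present peptides to T cells. RT1-S3, a nonclassical class I gene, was higher in CHFD, at 9.29, 9.64, 9.58, 9.91 and 9.70 against 8.21 to 8.94 in RND (median 8.71), a difference of 0.97 (SE 0.22, adjusted p = 0.0455). No other of the 14 tested genes of the list for class I and peptide loading passed (list median 0.17). Outside the list, the class I gene RT1-T24-4, named after its values were seen, was higher in CHFD with overlapping groups (10.55 ± 0.16 against 9.70 ± 0.44, difference 0.85, SE 0.17, adjusted p = 0.0213). RT1-S2 had a lower mean in CHFD, 7.19 ± 1.12 against 8.82 ± 0.26 (-1.63, adjusted p = 0.116), and so had RT1-A1 (11.15 ± 0.93 against 12.11 ± 0.43, adjusted p = 0.316). RT1-A2 had a higher mean, 11.74 ± 0.53 against 11.20 ± 0.33 (adjusted p = 0.37). Class I genes are close paralogs and vary in sequence between rats, so their probes may read each other's transcripts or depend on the haplotype, which was not tested.

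Nts, Chgb, Cryba2 and Resp18, genes of enteroendocrine cells and secretory granules, were higher in CHFD. Nts encodes neurotensin, a peptide hormone released after fat intake. Its levels (ILMN_1350873, chromosome 7, 39451484 to 39460888) were 6.21, 6.51, 6.03, 6.47 and 5.01 in CHFD, and the RND samples all lay between 4.44 and 4.63. Nts was detected on 6 of 6 CHFD arrays and on 0 of 6 RND arrays, and was at least 2.38-fold higher in CHFD on the background-corrected scale (adjusted p = 0.00561). Without background correction its log2 difference was 0.52, which is below that bound. For this bound the CHFD mean was set against the dimmest detected probe of each RND array, or the probe's own value where that was higher.

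Chgb encodes secretogranin 1, a granule protein of endocrine cells. Its levels (ILMN_1359665, chromosome 3, 140496712 to 140510057) were 11.07, 12.56, 12.09, 11.51 and 11.03 in CHFD and 8.71 to 10.71 in RND (median 10.08), a difference of 1.67 (SE 0.37, adjusted p = 0.0455). The lowest RND value was that of RND 17B, and without it Chgb missed the threshold, as it did without any of 11 other samples (adjusted p 0.053 to 0.145). Cryba2, a crystallin gene that marks enteroendocrine cells in single-cell surveys, was at 6.5, 6.74, 5.91, 6.06 and 5.93 in CHFD against 4.92 to 5.54 in RND (1.04, SE 0.17, adjusted p = 0.00485). Resp18, a protein of neuroendocrine granules, was at 8.43, 8.27, 7.86, 8.21 and 7.74 against 6.72 to 7.34 (0.99, SE 0.19, adjusted p = 0.0142), and it missed the threshold without CHFD 4A (adjusted p = 0.052). None of these 4 genes overlapped between the groups.

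Most members of the enteroendocrine list did not pass. Nts and Chgb were the members of 10 tested enteroendocrine genes that passed, where 0.626% of all genes passed in either direction. The list median was 0.21. Chga, the related chromogranin A gene, had means of 6.48 ± 0.28 and 5.53 ± 0.51 (0.95, adjusted p = 0.138), with all CHFD samples above all RND samples. Neurod1, an endocrine transcription factor, differed by 0.46 (adjusted p = 0.216), and Gcg, the precursor of the glucagon-like peptides, by -0.36 (adjusted p = 0.632). The list's summed level ran from 11.88 to 12.92 in CHFD and from 10.62 to 11.66 in RND, where RND 17B was lowest. This sum includes the called Chgb and Nts, so it is not independent of those calls.

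The kinase gene Dclk1 marks tuft cells. It stood at 6.25, 6.45, 6.80, 6.66 and 6.19 in CHFD and at 4.44 to 6.08 in RND (median 4.99), with no overlap (1.36, SE 0.28, adjusted p = 0.026). It was the only one of 6 tested tuft genes past the threshold (list median 0.57). Plcg2, a phospholipase (8.22 ± 0.15 against 6.97 ± 0.73, adjusted p = 0.0877), and Alox5, which starts leukotriene synthesis (5.46 ± 0.12 against 4.85 ± 0.21, adjusted p = 0.067), also lay above all RND samples in 5 of 5 CHFD samples but did not pass. The Dclk1 call was lost without any of 6 samples (adjusted p 0.0556 to 0.0888). RND 17B was again the lowest RND sample for Dclk1, Plcg2 and Alox5.

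Paraoxonases are lactonases that hydrolyse oxidized lipids and bacterial signalling lactones, and Pon3 and Pon2, close together on chromosome 4, were higher in CHFD. Pon3 (ILMN_1356386, 34323546 to 34350244) was at 11.48, 12.004, 11.84, 12.18 and 10.98 in CHFD against 9.21 to 10.37 in RND (median 9.91). That is a fold of 3.53 (2.47 to 5.04, adjusted p = 0.00115). Pon2 (ILMN_1358318, 34356270 to 34391684) was at 9.65, 9.78, 9.99, 10.13 and 9.54 against 8.26 to 9.24 (0.86, SE 0.15, adjusted p = 0.00942). A second Pon2 probe gave 0.69 and did not pass (adjusted p = 0.0677). The Pon2 call was lost with median-centred arrays (0.60, adjusted p = 0.304) and when only CHFD and RND were fitted (adjusted p = 0.0647). No other of the 13 tested genes for lipid absorption and lipoproteins passed (median 0.08). Lipe, the hormone-sensitive lipase, had a lower mean in CHFD (-0.88, adjusted p = 0.105).

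Further genes higher in CHFD had varied roles. St6gal1, which adds sialic acid to glycoproteins, was at 5.87, 6.57, 6.28, 5.56 and 7.10 against 4.66 to 5.18 in RND (1.43, SE 0.23, adjusted p = 0.00475). Pde9a, a cyclic GMP phosphodiesterase, was at 11.02, 11.68, 11.12, 10.81 and 10.82 against 9.65 to 10.38 (1.05, SE 0.19, adjusted p = 0.00987). Both were free of overlap and stayed past the threshold when any single sample was left out, but Pde9a missed it with median-centred arrays (0.78, adjusted p = 0.178). St6gal1 was detected on 4 of 6 RND arrays. Tuba1a, an alpha tubulin gene, differed by 1.35 (adjusted p = 0.0256) and was lost without any of 5 samples. Basp1, a membrane-bound signalling protein, differed by 0.95 (adjusted p = 0.0221). It was the only one of 9 tested members of the list for butyrate uptake and ketone bodies to pass, and it is neither a butyrate transporter nor a ketone body enzyme. The monocarboxylate transporter genes of that list had means on opposite sides, with Slc16a3 higher (0.93, adjusted p = 0.15) and Slc16a1 lower in CHFD (-0.78, adjusted p = 0.182).

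Nab1 is a co-repressor of Egr transcription factors. Its CHFD levels were 6.80, 7.04, 6.63, 6.73 and 7.26, and those of RND 4.47 to 6.71 with a median of 4.80, so the groups overlapped through RND 39B, the highest RND sample. The difference was 1.81 (SE 0.38, adjusted p = 0.0308), and 0.70 without background correction. Nab1 was detected on 3 of 6 RND arrays, and its call was lost without any of 8 single samples (adjusted p 0.0526 to 0.0932). Mean Nab1 was 5.33 ± 0.86 in CND and 4.77 ± 0.09 (n = 3) in RHFD, so the high-fat mean was above the chow mean in control rats and below it in growth-restricted rats. The interaction was -1.87 (SE 0.59, unadjusted p = 0.00471, adjusted p = 0.942) and did not pass.

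**Figure D2:**
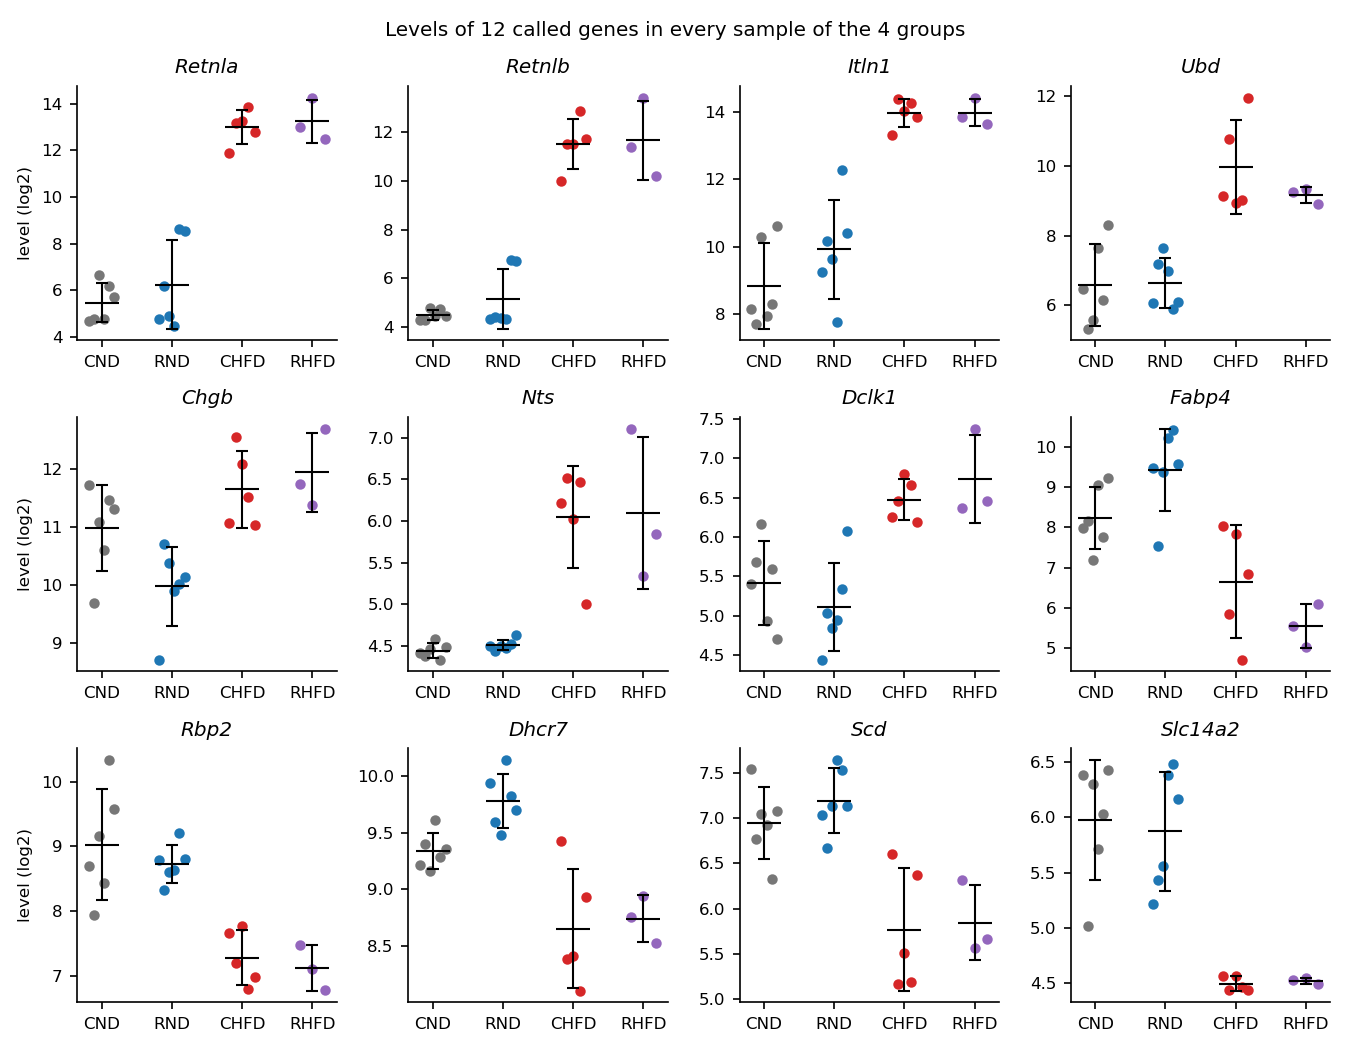
Normalized log2 level of 12 called genes in every sample of CND, RND, CHFD and RHFD. Points are samples, and bars are the group mean with its SD. For Retnla, Retnlb, Itln1, Ubd, Chgb, Nts, Dclk1, Rbp2, Scd and Slc14a2 the CHFD and RHFD samples lie on one side of all RND samples. For Fabp4 the CHFD samples span a wide range.

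Several genes higher in RND have roles in lipid metabolism, though few members of the lipid lists passed. Fabp4 encodes a fatty acid carrier found in adipocytes, macrophages and capillary endothelium and is a PPAR target. Its CHFD levels (ILMN_1376344, chromosome 2, 93488251 to 93492961) were 8.03, 5.85, 7.83, 4.71 and 6.84, and its RND levels 7.53 to 10.41 with a median of 9.52. The groups overlapped, since RND 19B lay below 2 CHFD samples, and the difference was -2.78 (SE 0.48, adjusted p = 0.00724). RND had the highest mean of the 4 groups (9.43 ± 1.02), followed by CND (8.23 ± 0.77), CHFD (6.65 ± 1.39) and RHFD (5.55 ± 0.53). RND and CND did not differ past the threshold (1.20, SE 0.46, adjusted p = 0.276). Adipoq, a defining adipocyte marker, was detected on 1 of 6 CHFD and 1 of 6 RND arrays. The summed adipocyte marker level was 8.16 to 9.14 in CHFD and 8.99 to 10.60 in RND. This sum includes Fabp4 itself and is not independent of it. The median difference of the 5 tested adipocyte genes was -0.04. The summed level of the macrophage and dendritic markers was 11.64 to 12.25 in CHFD and 10.65 to 11.53 in RND, and the single tested endothelial gene ranged from 4.53 to 4.77 and from 4.5 to 5.003. The part of these cells in the Fabp4 difference was not tested.

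Scd, the desaturase that makes monounsaturated fatty acids, was at 6.61, 5.16, 5.51, 5.19 and 6.37 in CHFD and 6.67 to 7.65 in RND (median 7.14). The difference was -1.43 (SE 0.27, adjusted p = 0.0148), and it missed the threshold without CHFD 4A (adjusted p = 0.0666). Gpd1, which links glycolysis to glycerolipid synthesis, differed by -0.83 (SE 0.17, adjusted p = 0.0284), a call lost without any of 6 single samples (adjusted p 0.065 to 0.1). The RND mean of Gpd1 was the highest, 6.67 ± 0.31 against 5.84 ± 0.33 in CHFD, 6.12 ± 0.28 in CND and 6.12 ± 0.12 in RHFD. Ucp2, a mitochondrial carrier protein, differed by -0.70 (SE 0.16) and passed only just (adjusted p = 0.0496). Scd was the only one of 9 tested fatty acid synthesis genes to pass (median -0.22), and Fabp4 and Ucp2 the only ones of 30 for fatty acid oxidation and PPAR targets (median -0.12).

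Of 16 tested sterol synthesis genes, Dhcr7 and Tm7sf2, which encode reductases of late cholesterol synthesis, passed, both lower in CHFD. A further 6 had an unadjusted p under 0.05, all higher in RND, and 14 had a negative difference. Of all probes, 7.33% reached this p with a higher level in RND, and 49.7% of all genes had a positive difference. The list was chosen with earlier results of these data known. The list median was -0.40, -0.54 without RND 17B, -0.08 on chip 1 alone and -0.64 on chip 2 alone. Dhcr7 (ILMN_1349202, chromosome 1, 208444434 to 208460408) was at 9.42, 8.39, 8.41, 8.10 and 8.93 in CHFD and 9.48 to 10.14 in RND (median 9.76), without overlap (-1.13, SE 0.19, adjusted p = 0.00561). Tm7sf2 (ILMN_1358232, chromosome 1, 212785217 to 212789572) was at 7.50, 6.31, 6.67, 6.62 and 7.12 against 7.41 to 8.96 (median 7.79). The difference was -1.09 (SE 0.21, adjusted p = 0.0148), and a second probe gave -1.21 (adjusted p = 0.0213). RND 17B was the highest RND sample for Tm7sf2, which lost its call without CHFD 4A (adjusted p = 0.0682) but not without RND 17B. Fdft1, squalene synthase, lay below all RND samples in 5 of 5 CHFD samples and missed the threshold (-0.70, adjusted p = 0.0761), as did the farnesyl diphosphate synthase gene Fdps (-0.64, adjusted p = 0.165).

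The promoter of Tm7sf2 is shown because sterol genes are known targets of the factors SREBP and NF-Y, with the NF-Y box CCAAT on either strand in capitals.
Tm7sf2, chr1:212789512-212789791, minus strand: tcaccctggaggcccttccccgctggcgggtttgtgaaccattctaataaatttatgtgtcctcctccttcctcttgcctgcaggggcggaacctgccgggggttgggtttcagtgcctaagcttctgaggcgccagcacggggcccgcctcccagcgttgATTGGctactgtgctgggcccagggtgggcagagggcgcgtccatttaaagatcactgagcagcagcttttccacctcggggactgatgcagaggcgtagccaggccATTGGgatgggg
It holds 2 CCAAT matches, 89 bases before the table's start, which lies just inside the gene's span, and 18 bases after it, and 36.2% of rat promoters of this length hold at least 1. The sterol element TCACNCCAC had 0 matches in the Tm7sf2 window and 0 in that of Dhcr7 (1.06% of promoters), and Dhcr7 also had 0 CCAAT matches.

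The vitamin A carriers Rbp2 and Rbp7 were lower in CHFD. Rbp2 and Rbp7 encode cellular retinol-binding proteins, and Rbp2 is abundant in absorptive cells of the small intestine. Rbp2 (ILMN_1365288, chromosome 8, 107958670 to 107983850) was at 7.67, 7.20, 7.77, 6.80 and 6.98 in CHFD and 8.32 to 9.21 in RND (median 8.71), without overlap (-1.44, SE 0.28, adjusted p = 0.0148). It missed the threshold without CHFD 4A (adjusted p = 0.0666). Rbp7 (ILMN_1364684, chromosome 5, 165169700 to 165177427) was at 8.07, 7.80, 8.90, 7.67 and 7.72 against 8.74 to 10.09 (median 9.20). CHFD 22B lay within the RND range, and the difference was -1.28 (SE 0.22, adjusted p = 0.00724). The other 11 tested retinoid genes did not pass, and the list median was 0.02. Bco1, which splits beta-carotene, differed by -0.74 (adjusted p = 0.111). Retsat, retinol saturase, had means of 12.32 ± 0.55 in CHFD, 11.76 ± 1.10 in RND (adjusted p = 0.585) and 9.41 ± 0.28 in RHFD.

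The Rbp2 promoter is shown for its AGGTCA half-site, on the minus strand of this window and in capitals, since nuclear receptors are known to act on this gene in the rat.
Rbp2, chr8:107963292-107963571, plus strand: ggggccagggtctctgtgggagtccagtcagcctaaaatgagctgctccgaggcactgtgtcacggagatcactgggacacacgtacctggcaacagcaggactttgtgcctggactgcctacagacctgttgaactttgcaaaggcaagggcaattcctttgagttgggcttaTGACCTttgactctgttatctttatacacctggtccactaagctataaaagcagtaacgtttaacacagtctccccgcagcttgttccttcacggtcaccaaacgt
The match begins 76 bases before the start in the promoter table, which lies inside the gene's span rather than at its outer end, and is the only one in the window.

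Transport and breakdown of urea and arginine products included 2 genes higher in RND. Slc14a2, a urea transporter (ILMN_1375909, chromosome 18, 73887575 to 74314546), lay between 4.44 and 4.57 in all 5 CHFD samples and between 5.22 and 6.49 in RND (median 5.86). It was detected on 0 of 6 CHFD and 6 of 6 RND arrays, and was at least 2.07-fold higher in RND on the background-corrected scale (adjusted p = 0.00406). Without background correction its log2 difference was -0.46, which is below that bound in size. Agmat, annotated as agmatinase, was at 5.01, 4.99, 4.60, 4.78 and 5.01 in CHFD and 5.56 to 5.97 in RND (-0.96, SE 0.14, adjusted p = 0.00223). Both kept their call when any single sample was left out. Of the 14 tested genes of this list no other passed (median -0.13). Arg2, mitochondrial arginase, had means of 6.72 ± 0.66 and 8.12 ± 0.82 (-1.40, adjusted p = 0.153).

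Ace, the angiotensin-converting enzyme of the brush border, was at 7.05, 6.68, 7.13, 6.48 and 5.84 in CHFD and 7.49 to 8.87 in RND (median 8.09), without overlap. The difference was -1.52 (SE 0.31, adjusted p = 0.0244), and it was lost without any of 5 samples (adjusted p 0.0508 to 0.0842). Ace was the only one of 12 tested brush border genes to pass (median -0.21). Xpnpep2, an aminopeptidase of the same membrane, differed by -1.02 (adjusted p = 0.111).

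Of 30 tested genes of drug metabolism, 2 passed, both lower in CHFD. Cyp2c24, a cytochrome P450, was at 7.99, 7.77, 8.27, 7.63 and 7.71 in CHFD and 8.51 to 9.28 in RND (-1.06, SE 0.19, adjusted p = 0.00961). Ugt1a6, a glucuronosyltransferase, differed by -0.60 (SE 0.13, adjusted p = 0.0408), a call lost without any of 9 single samples (adjusted p 0.0554 to 0.12). Of the 30, 10 had an unadjusted p under 0.05 and a higher level in RND, and 2 a higher level in CHFD. Over all probes these shares were 7.33% and 6.13%. The list was chosen with earlier results of these data known. The list median was -0.18. The paralogs Cyp2d5 (-1.36, adjusted p = 0.0745) and Cyp2d1 (-1.01, adjusted p = 0.102) did not pass, and their probes may share targets. Akr7a3, an aldehyde reductase outside the list, passed (9.45 ± 0.37 against 10.34 ± 0.29, adjusted p = 0.026).

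Other genes higher in RND were Sorcs2, a sorting receptor (5.07 ± 0.29 against 6.14 ± 0.31, adjusted p = 0.0148), Pdxk, pyridoxal kinase (5.27 ± 0.27 against 6.14 ± 0.25, adjusted p = 0.0228), and Zfp575, a zinc finger gene (5.89 ± 0.19 against 6.98 ± 0.46, adjusted p = 0.0455). CHFD and RND did not overlap for these 3 genes. Among probes without a gene name, ILMN_1368735 had the largest difference in this direction. It was at 4.79, 4.99, 5.76, 4.78 and 5.41 in CHFD and 8.81 to 11.33 in RND (-5.02, SE 0.54, adjusted p = 4.29e-05). ILMN_1353635 differed by -2.33 (SE 0.36, adjusted p = 0.00395). In the other direction ILMN_1369184 differed by 2.74 (SE 0.53, adjusted p = 0.0178) and ILMN_1371094 by 1.18 (SE 0.22, adjusted p = 0.0123).

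Immune cell markers had higher means in CHFD, though no member passed. Of 13 tested genes of T and natural killer cells, 13 had a positive difference (median 1.06), where 49.7% of all genes had one. For 11 the unadjusted p was under 0.05, which 6.13% of all probes reached in the same direction. The lists were chosen with earlier results of these data known, so these counts are descriptions only. Cd8a, the co-receptor of cytotoxic T cells, was at 6.29, 7.06, 6.23, 7.13 and 9.66 in CHFD and 4.66 to 7.39 in RND (1.76, SE 0.50, adjusted p = 0.115). Gzma, granzyme A, differed by 1.42 (SE 0.43, adjusted p = 0.136). The summed level of the list was 10.92 to 13.67 in CHFD and 9.66 to 11.64 in RND. All 8 macrophage and dendritic genes had a positive difference (median 0.68), led by Fcer1g (0.82, adjusted p = 0.0877) and Laptm5 (1.16, adjusted p = 0.111), with summed levels of 11.64 to 12.25 against 10.65 to 11.53. All 6 mast cell and granulocyte genes had a positive difference (median 0.57). Among them Mcpt10, a mast cell protease, lay above all RND samples in 5 of 5 CHFD samples (1.06, adjusted p = 0.105). The 3 B cell genes had a median of -0.0029. The part of these leukocyte markers in the differences of Ubd, Retnla and the class I genes was not tested.

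No member of the cell cycle and oxidative phosphorylation lists passed. Of 27 tested cell cycle genes, 23 had a negative difference (median -0.46). For 13 the unadjusted p was under 0.05, against 7.33% of all probes in this direction. The lists were chosen with earlier results of these data known, so counts within them are descriptions only. Ube2c, which drives exit from mitosis, was at 7.67, 5.55, 5.69, 6.34 and 7.23 in CHFD and 7.34 to 8.00 in RND (-1.17, SE 0.28, adjusted p = 0.0677). CHFD 10B and 8B lay near the RND samples, and the other 3 well below them. Cdk1, the mitotic kinase, showed the same spread within CHFD, at 9.13, 7.62, 7.37, 7.67 and 9.18 (-0.88, adjusted p = 0.126). Of 43 tested genes of oxidative phosphorylation, 39 had a negative difference (median -0.22), where 49.7% of all genes had a positive one. For 17 the unadjusted p was under 0.05, all higher in RND, against 7.33% of all probes in this direction. Related genes outside these lists, named after their values were seen, did pass: Ndufa7, a subunit of respiratory complex I (6.90 ± 0.10 in CHFD against 7.51 ± 0.22 in RND, difference -0.61, adjusted p = 0.0455), and Ncapd2, a condensin subunit (5.39 ± 0.38 against 6.02 ± 0.15, -0.63, adjusted p = 0.039). The 52 cytosolic ribosome genes had a median of -0.08. With median-centred arrays these medians were -0.49 for oxidative phosphorylation and -0.35 for ribosomal genes, against -0.14 over all probes.

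Several lists had no member past the threshold and medians near that of all genes: water and ion transport (26 genes, -0.06), glutathione and Nrf2 targets (19, 0.01), ER stress (17, 0.12), tight and adherens junctions (20, 0.13) and DNA and histone methylation (9, -0.12). Outside the lists, the glutathione transferase gene Gstm5, named after its values were seen, was lower in CHFD and passed only just (-0.70, adjusted p = 0.0496). The 7 class II histocompatibility genes had a median of 0.52 that was -0.01 on chip 1 alone. Immediate early and heat shock genes (19) had a median of 0.53. Egr1, induced within minutes of stimulation, was at 10.43, 12.76, 9.21, 8.62 and 8.52 in CHFD and 6.63 to 8.86 in RND (adjusted p = 0.253). The clock gene Per2 was at 9.35, 11.40, 9.50, 9.74 and 8.95 against 7.57 to 8.86 (1.45, adjusted p = 0.0877). CHFD 4A was the highest sample for both. Haemoglobin genes of red cells varied widely in both groups, with Hbb at 7.77 ± 1.11 in CHFD and 9.80 ± 1.85 in RND (adjusted p = 0.389).

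**Figure D3:**
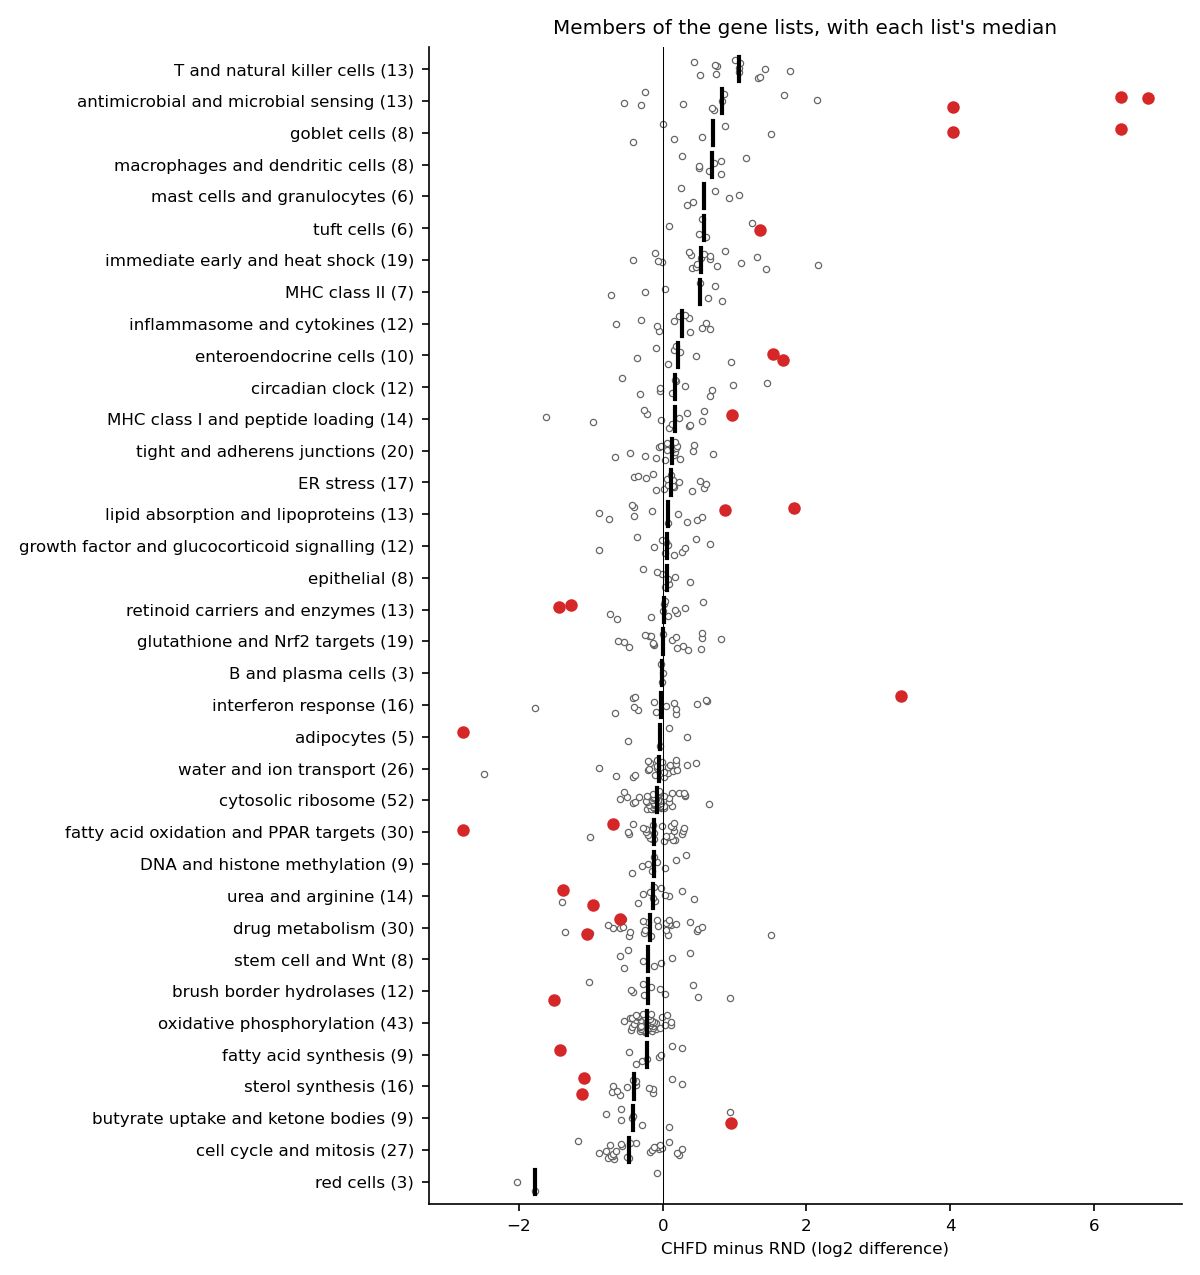
Log2 difference CHFD minus RND of each tested member of the gene lists with at least 3 tested members, whose number is in parentheses. Filled red points passed the adjusted threshold, open points did not, and black bars are list medians. Medians of the T cell, macrophage, mast cell and defence lists lie to the right, and that of B and plasma cells lies near 0. The median of red cells (-1.78) lies farthest to the left. Those of the cell cycle, butyrate and sterol synthesis lists also lie to the left. Filled points are few in every list.

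The called probes were then read in the other 2 groups. The difference RHFD minus CND is the sum of the diet and IUGR effects, and its means come from 9 samples outside the contrast. Its SE comes from the fit of all 20 samples, which also called the 55 probes. Passing there is thus not independent of the call. In RHFD minus CND, 53 of the 55 called probes had the direction they had in CHFD minus RND (96.4%), against 56.7% of all probes. Turned to that direction, their median was 0.93, against 0.03 over all probes. At the adjusted threshold 22 of the 55 passed there in the same direction and 0 in the opposite one, where 95 of all probes (0.932%) passed. Retnla had means of 5.47 ± 0.85 in CND and 13.25 ± 0.92 in RHFD, a difference of 7.78 (SE 0.77, adjusted p = 1.88e-05). Itln1 differed there by 5.13 (adjusted p = 0.00118), Nts by 1.65 (adjusted p = 0.00877), Rbp2 by -1.90 (adjusted p = 0.00637) and Slc14a2 by -1.46 (adjusted p = 0.00839).

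Retnlb, Pon3, Agmat, Resp18, Fabp4, Cryba2 and Rbp7 also passed in RHFD minus CND. Examples that did not pass there were Ubd (2.58, adjusted p = 0.0673), Chgb (0.96, adjusted p = 0.518), Scd (-1.10, adjusted p = 0.127) and Dhcr7 (-0.60, adjusted p = 0.301), all in the same direction. Nab1 (-0.56) and Gpd1 (0.01) were the exceptions in direction. Of 10193 probes, the IUGR effect averaged over diet passed for 0 in limma, with 461 at an unadjusted p under 0.05. The interaction passed for 0, with 420 at that p. Between RND and CND 1 probe passed, with 1403 at that p, and between RHFD and CHFD 0 passed, with 113. CHFD minus RND had 1372 at that p. For comparison, the diet effect averaged over birth status passed for 413 probes, with 1479 at an unadjusted p under 0.05. This contrast and CHFD minus RND share samples.

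**Figure D4:**
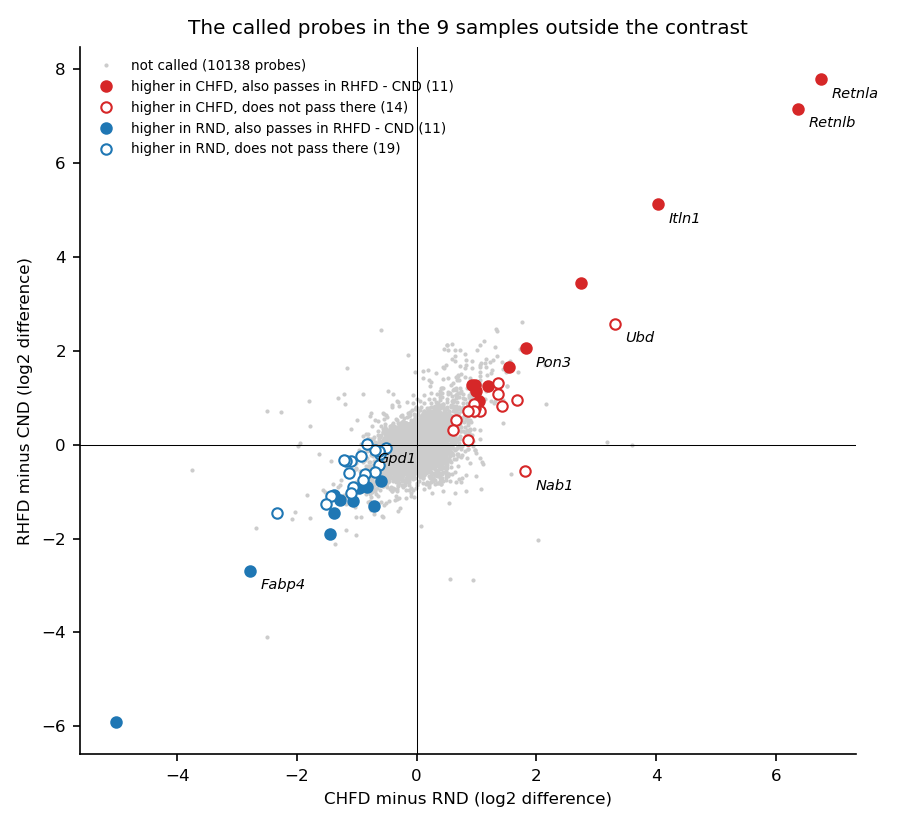
Log2 difference CHFD minus RND (x axis) against RHFD minus CND (y axis, from the other 9 samples) for all 10193 tested probes. Coloured points are the 55 called in CHFD minus RND, filled where they also pass in RHFD minus CND (22). All but Nab1 and Gpd1 lie in the quadrants of equal sign.

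Some genes had an extreme mean in RND. RT1-S2 lay between 8.48 and 9.23 in all 6 RND samples and averaged 6.72 ± 1.58 in CND, 7.19 ± 1.12 in CHFD and 6.51 ± 0.39 in RHFD, while its range in CND reached 9.79. Its difference RND minus CND was 2.11 (SE 0.45, adjusted p = 0.175). Zfp575 averaged 6.98 ± 0.46 in RND, 6.18 ± 0.62 in CND, 5.89 ± 0.19 in CHFD and 5.83 ± 0.14 in RHFD. The called genes Ncapd2 and Tmx2, named after their values were seen, were also highest in RND. Ncapd2 averaged 6.02 ± 0.15 in RND, 5.45 ± 0.35 in CND, 5.39 ± 0.38 in CHFD and 5.31 ± 0.15 in RHFD. Tmx2 averaged 7.61 ± 0.11, 7.28 ± 0.24, 7.10 ± 0.12 and 7.21 ± 0.11 in the same order. Chgb was lowest in RND (9.98 ± 0.68) and averaged 10.98 ± 0.73 in CND, 11.65 ± 0.66 in CHFD and 11.94 ± 0.68 in RHFD. None of these genes differed between RND and CND at the adjusted threshold.

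The calls rested unequally on single samples. The number of called probes was 28 without CHFD 4A, 91 without CHFD 10B, 33 without RND 35B and 87 without RND 17B, of which 25, 53, 32 and 50 were among the 55. Of 38 named genes and probes that passed, 20 stayed past the threshold whichever sample was left out, among them Retnla, Retnlb, Itln1, Ubd, Pon3, Nts, Fabp4, Slc14a2, Rbp7, Dhcr7 and Agmat. The least stable were Ucp2, RT1-S3, Zfp575 and Chgb, each lost without any of 12 to 15 single samples. Just inside the threshold lay RT1-S3 (adjusted p = 0.0455), Gstm5 and Ucp2 (both 0.0496), and just outside Padi1, Apoc2 and Ces2h (all 0.0538).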

How the data were processed

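Transcript levels were measured on Illumina rat arrays (biotin-labelled cRNA, read with GenomeStudio per the submitters' processing notes, version not given in the sources used here). Each array's columns in the deposited table give intensity and detection p-value for 22523 probes, per the file headers. The deposited intensities are on a linear scale. The series matrix, used as an alternative, holds linear intensities from the authors whose distributions are nearly equal across arrays, as after quantile normalization; no source states the step.

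The neqc function (limma 3.58.1, R 4.3.3, statmod 1.5.0) subtracted background estimated through detection p-values, added an offset of 16, and quantile normalized the arrays to log2 values. Probes with detection p under 0.05 on at least 6 arrays were kept (10193, of which 7483 have a gene symbol). Arrays sharing a title number were averaged (4 samples). A linear model with group and chip was fitted to all 20 samples with limma's empirical Bayes test, 15 residual degrees of freedom and Benjamini-Hochberg adjustment over all probes. A gene is represented by its probe with the highest mean. The platform table gives 1 symbol to 13793 probes and none to 8730, and 13752 symbols were updated from RefSeq (GRCr8) by gene ID. The summed level of a list is the log2 of the sum of its tested members' linear values.

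The text names the 15 largest changes in each direction, at most 2 unnamed probes per direction, up to 6 members by p of lists with a called member and up to 2 of the others. The members and the 39 lists were chosen with earlier results of these data known. The functions were tested on simulated data. Alternatives covered background correction, normalization, filters, chip, weights, the samples fitted and each sample left out. The number of arrays limits the precision.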

Additional observations from a re-analysis of the deposited data

Results flagged for a closer look

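Among 76 groups of levels of named genes that were examined for an isolated sample by Dixon's criterion (about 1 in 20 such groups is marked by chance), 3 samples lay far from the rest, all in RND. Nab1 was 6.71 in RND 39B, where the next RND sample was at 5.14. Fabp4 was 7.53 in RND 19B, below the next sample at 9.37. Tm7sf2 was 8.96 in RND 17B, above the next sample at 7.97. No cause was tested for these values.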

How the results depend on the processing

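No paired analysis was possible because the groups share no title numbers. The count of 55 called probes became 34 with median-centred arrays, 8 on chip 1 alone, 13 on chip 2 alone and 139 with array quality weights. It ranged from 28 to 91 when single samples were left out, and from 42 to 66 under the other 9 alternatives. The 53 called probes with the same direction in RHFD minus CND became 34 of 34 with median centring, 5 of 8 on chip 1, 12 of 13 on chip 2, 112 of 139 with weights and 27 to 88 when single samples were left out. That count has no value when only CHFD and RND are fitted. No named value changed sign past the threshold. Retnla, Retnlb and ILMN_1368735 passed under every alternative. The part of the smaller sample number in the losses within chips was not tested. Without background correction the fold of 15 of the 38 named calls shrank by over 1.5 times, among them Nts (log2 difference 0.52), Slc14a2 (-0.46), Agmat (-0.30), Scd (-0.66), Dclk1 (0.50), St6gal1 (0.51), Cryba2 (0.37), Sorcs2 (-0.37), Ubd (2.46) and Fabp4 (-1.90). Median centring ended 15 of the 38 calls: Nab1, Chgb, Dclk1, Tuba1a, Pde9a, Resp18, RT1-S3, Pon2, Basp1, ILMN_1369184 and ILMN_1371094, higher in CHFD, and Zfp575, Gpd1, Ucp2 and Ugt1a6, higher in RND. Fitting only CHFD and RND ended 8 (Chgb, Tuba1a, Tm7sf2, Gpd1, ILMN_1369184, Pon2, Ucp2 and Ugt1a6), and dropping the chip term 7 (Chgb, RT1-S3, Zfp575, Akr7a3, Basp1, Ucp2 and Ugt1a6). Ugt1a6 and Pdxk were also lost with the 24 arrays fitted under a random block. Dim probes and 5 to 6 samples a group limit what could be detected.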
